A study of Mus musculus with 75 samples.

Results

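The TGF-β ligands, their receptors, and the SMADs that carry the signal were followed as 10 genes, *Tgfb1*, *Tgfb2*, *Tgfb3*, *Tgfbr1*, *Tgfbr2*, *Tgfbr3*, *Smad2*, *Smad3*, *Smad7*, and *Ltbp1*. They were chosen by symbol from a table of 32245 genes, and all 10 were in the table. Whole-kidney RNA was counted in 75 libraries from adult mice 3 days after unilateral ureter obstruction (UUO), in which 1 ureter is ligated. The obstructed kidney was compared with a contralateral kidney (CL) in 3 arms of 4 groups each.

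In the ABTAA arm, mice received control human IgG Fc (label IgG, 8 CL and 8 UUO libraries) or ABTAA, an antibody that binds ANGPT2 and activates the endothelial receptor TIE2 (label ABT, 7 and 7). These mice were C57BL6/J or WT mice of the breeding colony. In the Veptp arm, floxed *Veptp* was deleted with the tamoxifen-inducible *Cdh5*-CreERT2, which is active in endothelium (label VeKO, 6 and 8). Its controls were *Veptp* wt/lox littermates that carried *Cdh5*-CreERT2 but received no tamoxifen (label VeWT, 7 and 8), so tamoxifen and genotype cannot be told apart. In the Pdgfb arm, floxed *Pdgfb* was deleted in the whole body with the tamoxifen-inducible *Actb*-CreERT2 (label PbKO, 4 and 4). The controls were Cre-negative littermates with *Pdgfb* wt/lox or lox/lox (label PbWT, 4 and 4), so Cre and deletion cannot be told apart. Tamoxifen was given 1 week before the experiments in this line and at 4 weeks of age in the *Veptp* line. The methods do not state whether PbWT mice received it. The genetic lines had a mixed background, and both sexes were used. In the PbWT CL group, 2 kidneys came from sham-operated mice, and the labels do not mark which. The methods count 1 mouse fewer in VeWT than there are VeWT UUO libraries.

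TGF-β is made as a latent complex. The ligands, encoded by *Tgfb1*, *Tgfb2*, and *Tgfb3*, are stored in the matrix with binding proteins such as the product of *Ltbp1*, and integrins or matrix proteins release them. Free ligand is held by the type II receptor (*Tgfbr2*), which recruits and phosphorylates the type I receptor (*Tgfbr1*), while betaglycan (*Tgfbr3*) presents ligand to them. The activated type I receptor phosphorylates SMAD2 and SMAD3, which move to the nucleus with SMAD4, and *Smad7* encodes the inhibitory SMAD that dampens the receptor. In the kidney this pathway is known for its role in fibrosis. Its activity is set largely by release of ligand and phosphorylation, which counts of RNA do not measure.

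The receptors and the ligand on which the results turn are shown by the 250 bases before their annotated start, to show what lies upstream of members that were called. Sequences are RefSeq promoter entries on GRCm38.p6 (the mm10 assembly), written 5′ to 3′ on the strand of the gene. Capitals mark CAGAC (the SMAD box), GGGCGG (the GC box), and TGANTCA (the AP-1 site), each searched on both strands.
Tgfbr2 (chr9:116175364-116175613, minus strand): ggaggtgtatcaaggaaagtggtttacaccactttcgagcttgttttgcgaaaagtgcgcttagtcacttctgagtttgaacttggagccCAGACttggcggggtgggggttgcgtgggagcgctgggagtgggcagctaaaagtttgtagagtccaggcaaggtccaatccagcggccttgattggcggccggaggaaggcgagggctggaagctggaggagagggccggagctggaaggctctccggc
Tgfbr1 (chr4:47352972-47353221, plus strand, the entry at the start of the gene): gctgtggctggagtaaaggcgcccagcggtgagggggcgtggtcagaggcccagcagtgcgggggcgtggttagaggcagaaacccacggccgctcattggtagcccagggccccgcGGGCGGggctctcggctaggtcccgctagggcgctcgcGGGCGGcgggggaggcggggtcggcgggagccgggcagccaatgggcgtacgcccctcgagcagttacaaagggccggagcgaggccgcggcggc
Tgfb2 (chr1:186705990-186706239, minus strand): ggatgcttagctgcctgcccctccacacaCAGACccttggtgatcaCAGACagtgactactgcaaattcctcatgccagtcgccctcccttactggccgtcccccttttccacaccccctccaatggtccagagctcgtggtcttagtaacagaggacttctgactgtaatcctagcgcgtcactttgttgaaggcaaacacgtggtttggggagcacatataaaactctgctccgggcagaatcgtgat
The window of *Tgfbr2* held 1 CAGAC and that of *Tgfb2* held 2, while the window printed for *Tgfbr1* held 2 GGGCGG and no CAGAC. A second *Tgfbr1* entry (chr4:47385966-47386215, plus strand, not printed) held 1 CAGAC and no GGGCGG. None of these 3 windows held TGANTCA. Of 32851 promoter windows of this length, 42.2% held CAGAC, 32.7% GGGCGG, and 6.75% TGANTCA, so that the first 2 motifs are common. A match is a description of the letters and not a site of binding.

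Depth set what could be read. Library totals ran from 172827 to 2341800 counts, with a median of 757897. *Tgfbr2* had a median of 50 counts per library, *Tgfbr1* 32, *Smad2* 29, *Smad3* 28, *Tgfbr3* 18, *Ltbp1* 12, and *Smad7* 10. The ligands were sparse, with a median of 5 counts for *Tgfb2*, 2 for *Tgfb1*, and 1 for *Tgfb3*, and *Tgfb3* had no count in 19 libraries. After the filter on low counts, 7 of the 10 genes were tested in the ABTAA arm (no ligand), 9 in the Veptp arm (not *Tgfb3*), and 8 in the Pdgfb arm (not *Tgfb1* or *Tgfb3*). Levels are given as CPM, counts scaled to a common library total, after TMM normalization over all 75 libraries. No gene lengths were used, so levels are compared between groups for 1 gene and not between genes.

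Some libraries differed in ways that the groups do not explain. Library names came in 2 forms, 45 plain names such as B8 and 30 split names such as G_8, and the Pdgfb arm held no split names. Plain and split names numbered 3 and 4 in VeWT CL, 2 and 4 in VeKO CL, and 4 and 4 in VeWT UUO and in VeKO UUO. Counts of both *Xist* and Y-linked genes, at least 10 of each, were present in 24 libraries, 22 of the plain and 2 of the split names, among them all 4 PbKO UUO libraries. Whether such libraries hold RNA of more than 1 mouse was not tested, and every result in PbKO UUO rests on them. In the Veptp arm, the numbers 3, 4, 7, and 8 in the names stood for 1 genotype in CL and the other in UUO. The deviations of the 4 CL and UUO pairs with these numbers from their group means nevertheless correlated at 0.161 to 0.547, against a mean of -0.0435 for different numbers. Whether the genotype labels of these libraries are crossed was not tested, so VeKO and VeWT stand for the labels as given. *Pdgfb* was at 18.9 ± 3.71 CPM (SD, n = 4) in the libraries labelled PbKO CL and 10.5 ± 6.80 CPM in PbWT CL, and at 37.6 ± 3.96 and 54.3 ± 6.11 CPM in UUO, with no call in either comparison (adjusted p of edgeR's quasi-likelihood test 1 and 0.125), while its UUO response was smaller in PbKO (log2 difference -1.26 ± 0.39, adjusted p in edgeR 0.0461). *Ptprb*, which encodes VEPTP, was at 32.0 ± 5.80 CPM in VeKO CL (n = 6) and 50.5 ± 17.8 CPM in VeWT CL (n = 7), also without a call (log2 fold change -0.63 ± 0.36 SE). In UUO it was at 31.3 ± 17.2 and 48.7 ± 26.4 CPM (n = 8 each, -0.69 ± 0.33, unadjusted p in edgeR 0.0433, adjusted p 1). Gene counts can include reads from outside the deleted part, so these values do not settle the labels. The study's other measures of the deletions are not used here.

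*Tgfbr2*, which encodes the receptor that first holds the ligand, was higher in UUO than in CL kidneys in 5 of 6 groups of mice. In IgG mice, its lowest, median, and highest levels were 27.1, 47.0, and 54.2 CPM in CL and 98.1, 115, and 137 CPM in UUO. All 8 UUO libraries lay above all 8 CL libraries. The log2 fold change was 1.44 ± 0.15 (SE), a 2.72-fold difference, with an adjusted p of 2.49e-09 in edgeR's quasi-likelihood test. In ABT mice, levels were 39.0, 58.2, and 69.0 CPM in CL and 91.0, 113, and 131 CPM in UUO, again without overlap. The difference was 2.05-fold (log2 1.03 ± 0.15, adjusted p in edgeR 2.88e-06). In libraries thinned to the depth of the shallowest, the ABT difference fell to 0.60 and the call was lost (adjusted p in edgeR 0.28).

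In VeWT mice *Tgfbr2* was at 36.0, 56.5, and 72.7 CPM in CL and at 92.7, 125, and 146 CPM in UUO, which did not overlap (log2 1.11 ± 0.18, 2.16-fold, adjusted p in edgeR 6.45e-05). In VeKO mice it was at 31.0, 52.2, and 94.4 CPM in CL and at 62.3, 99.5, and 128 CPM in UUO, and the groups overlapped. The log2 fold change in VeKO was 0.76 ± 0.20 (adjusted p in edgeR 0.0115). The highest VeKO CL library (B8) decided the overlap, and the fold change was 0.95 without it. In VeKO the call was lost in the libraries with plain names (0.32, adjusted p in edgeR 0.902), and it was 1.05 in those with split names. It was also lost without the numbers that stood for both genotypes (0.65, adjusted p in edgeR 0.292) and fitted without the VeWT groups (0.78, adjusted p in edgeR 0.0569). In thinned libraries neither call held (VeWT 1.06, adjusted p in edgeR 0.234, and VeKO 1.11, 0.468).

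In PbWT mice the 4 CL libraries were at 72.9, 50.6, 43.4, and 47.8 CPM and the 4 UUO libraries at 116, 114, 112, and 120 CPM. The UUO libraries were close together and above every CL library (log2 1.08 ± 0.15, 2.11-fold, adjusted p in edgeR 3.12e-06). In the libraries labelled PbKO, CL was at 55.5, 39.1, 55.7, and 49.7 CPM and UUO at 81.6, 66.0, 71.4, and 72.1 CPM. These groups did not overlap, but the change of 0.49 ± 0.17 on the log2 scale did not pass the test over all genes (adjusted p in edgeR 0.0908).

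**Figure D1:**
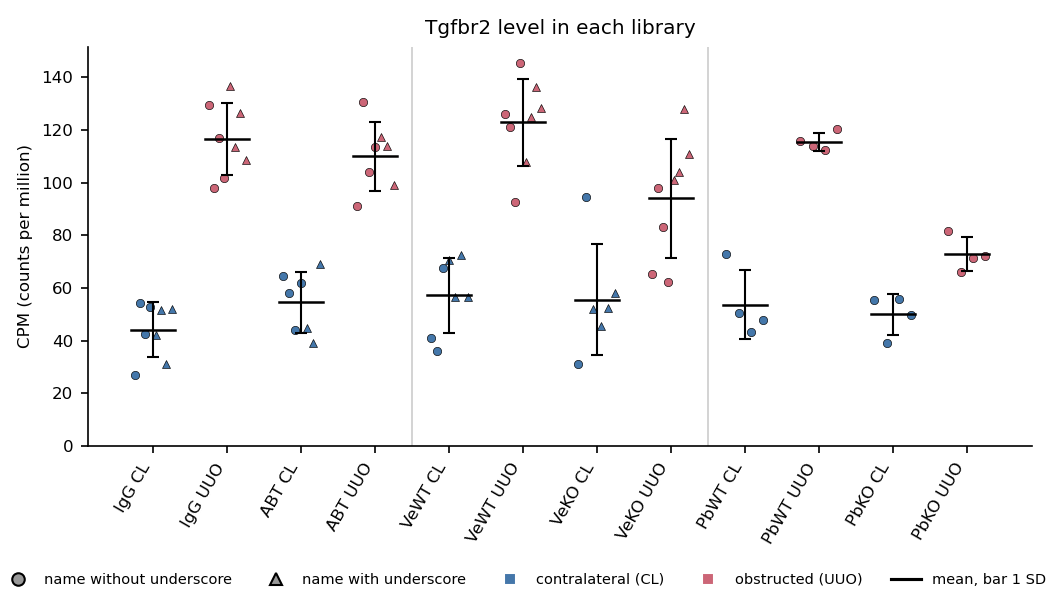
*Tgfbr2* level (CPM, linear axis from 0) in each of the 75 libraries by group, with the mean and 1 SD. Circles are libraries with plain names and triangles those with split names; CL libraries are blue and UUO libraries red, and the PbKO UUO libraries (66.0 to 81.6 CPM) lie below the PbWT UUO libraries (112 to 120 CPM).

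Across the 12 groups, the mean *Tgfbr2* level was lowest in IgG CL (44.2 ± 10.5 CPM, SD, n = 8). It then ran through PbKO CL (50.0 ± 7.77, n = 4), PbWT CL (53.7 ± 13.2, n = 4), ABT CL (54.5 ± 11.7, n = 7), VeKO CL (55.6 ± 21.2, n = 6), and VeWT CL (57.3 ± 14.3, n = 7), and each of these groups overlapped with the next. Next came PbKO UUO (72.8 ± 6.48, n = 4) and VeKO UUO (94.0 ± 22.5, n = 8), which also overlapped. The remaining UUO groups followed with ABT (110 ± 13.1, n = 7), PbWT (116 ± 3.42, n = 4), IgG (116 ± 13.6, n = 8), and VeWT (123 ± 16.4, n = 8), whose ranges overlapped. Differences between arms were not tested. Genes whose group means followed *Tgfbr2* most closely were *Fosl2* (Pearson's r = 0.985), *Tmem173* (0.984), and *Plat* (0.983). These are descriptions over 12 group means on the log2(CPM + 1) scale among 9554 genes tested in all arms, and the groups also differ in depth and cell makeup.

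*Tgfbr1*, the kinase partner of *Tgfbr2*, rose in IgG and PbWT mice. In IgG it was at 27.1, 42.7, and 60.0 CPM (lowest, median, highest) in CL and 21.8, 67.5, and 114 CPM in UUO, with wide overlap (log2 0.68 ± 0.21, 1.61-fold, adjusted p in edgeR 0.0103). That call was lost without the libraries that held *Xist* and Y-linked counts (0.57, adjusted p in edgeR 0.129) in plain names alone (0.71, adjusted p in edgeR 0.103), and in thinned libraries (0.57, 0.372). In PbWT, the CL libraries were at 26.2, 29.5, 37.4, and 35.1 CPM and the UUO libraries at 59.8, 49.6, 46.6, and 56.7 CPM, with no overlap (log2 0.71 ± 0.18, 1.63-fold, adjusted p in edgeR 0.00236), although the call was lost in thinned libraries (0.92, adjusted p in edgeR 0.0862). The other 4 groups of mice gave log2 fold changes of 0.31 ± 0.22 (ABT), 0.20 ± 0.20 (VeWT), 0.26 ± 0.22 (VeKO), and 0.42 ± 0.20 (PbKO), none of which passed the test.

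*Tgfbr3*, the co-receptor betaglycan, was not called in UUO against CL in any group of mice. Other settings called it in opposite directions, lower in VeKO UUO with all 12 groups in 1 fit (-0.74, adjusted p in edgeR 0.0459) and higher in PbWT UUO without TMM normalization (0.66, adjusted p in edgeR 0.0188). Its mean was 21.7 ± 6.79 CPM in IgG CL and 27.3 ± 10.7 CPM in IgG UUO, and the log2 fold change was 0.28 ± 0.25. It was negative in ABT (-0.29 ± 0.26), VeWT (-0.24 ± 0.31), VeKO (-0.75 ± 0.33), and PbKO (-0.59 ± 0.26), and positive in PbWT (0.28 ± 0.23). In PbKO the 4 UUO libraries (15.9 to 26.1 CPM) lay just below the 4 CL libraries (26.4 to 39.8 CPM), while the adjusted p in edgeR was 0.208.

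*Smad2*, a receptor-activated SMAD, was called in IgG mice, where CL libraries were at 23.7, 29.3, and 36.5 CPM and UUO libraries at 38.2, 49.0, and 78.0 CPM. The 2 groups did not overlap (log2 0.98 ± 0.19, 1.97-fold, adjusted p in edgeR 8.22e-05), although the call was lost in plain names (0.69, adjusted p in edgeR 0.103). In the other groups of mice it was 0.44 ± 0.19 (ABT, adjusted p in edgeR 0.0883), 0.31 ± 0.19 (VeWT), 0.19 ± 0.20 (VeKO), 0.39 ± 0.20 (PbWT), and 0.13 ± 0.22 (PbKO), none of which passed. Other settings called it in ABT with the filter on mean count (0.53, adjusted p in edgeR 0.039), in VeWT with split names and no block (0.58, 0.021), and in PbWT without TMM normalization (0.77, 0.00508). The difference between the IgG and ABT responses, -0.54 ± 0.27, did not pass the test (adjusted p in edgeR 0.999).

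*Smad3*, the other receptor-activated SMAD, was called in VeWT and IgG mice. In VeWT it was at 9.63, 26.3, and 30.9 CPM in CL and at 33.1, 39.8, and 47.9 CPM in UUO, without overlap (log2 0.74 ± 0.23, 1.67-fold, adjusted p in edgeR 0.0202). Leaving out the CL library G_8 moved this to 0.68 with an adjusted p in edgeR of 0.0528. The call was also lost in plain names (0.67, adjusted p in edgeR 0.253), in split names with a replicate block (0.55, 0.0856), without the numbers that stood for both genotypes (0.60, 0.251), without the libraries with *Xist* and Y-linked counts (0.79, 0.0517), and in thinned libraries (1.69, 0.172). In IgG it was at 15.1, 34.5, and 45.6 CPM in CL and at 17.9, 47.4, and 66.5 CPM in UUO, which overlapped (0.59 ± 0.23, adjusted p in edgeR 0.0437). That call did not hold when 21 of the 30 libraries of the arm were left out singly. Elsewhere it was 0.39 ± 0.24 (ABT), 0.50 ± 0.25 (VeKO), 0.48 ± 0.20 (PbWT), and -0.22 ± 0.23 (PbKO). In PbWT it was called with the filter on mean count (0.52, adjusted p in edgeR 0.0457), without TMM normalization (0.85, 0.00141), and without the CL library A5 (0.63, 0.0286).

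*Smad7*, the inhibitory SMAD and itself a known target of the pathway, did not pass the test in any group of mice. Its log2 fold change was 0.19 ± 0.40 in IgG, 0.05 ± 0.41 in ABT, -0.11 ± 0.33 in VeWT, 0.56 ± 0.37 in VeKO, 0.14 ± 0.31 in PbWT, and 0.04 ± 0.34 in PbKO. Group means lay between 12.1 ± 4.82 CPM in VeKO CL (n = 6) and 20.0 ± 1.37 CPM in PbWT UUO (n = 4). The SE of these estimates was larger than that of *Smad3* in each group of mice, at a median of 10 counts per library.

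*Ltbp1*, which encodes the protein that tethers latent ligand to the matrix, rose in ABT mice. Levels were 9.09, 11.3, and 24.5 CPM in ABT CL and 16.0, 22.9, and 33.4 CPM in ABT UUO, with 3 of 7 UUO libraries above all CL libraries (log2 0.84 ± 0.23, 1.79-fold, adjusted p in edgeR 0.00568). The CL group of ABT was low beside IgG CL (10.3, 21.8, and 29.3 CPM), while IgG UUO was at 14.0, 19.2, and 28.8 CPM. The call held when each library was left out (0.73 to 1.01) and was lost with all 12 groups in 1 fit (0.81, adjusted p in edgeR 0.0733). With split names alone it was 0.50 (adjusted p in edgeR 0.351), and 0.53 with the number as a replicate block (adjusted p in edgeR 0.286). *Ltbp1* was 0.02 ± 0.22 in IgG, -0.0017 ± 0.39 in VeWT, -0.92 ± 0.44 in VeKO, 0.57 ± 0.24 in PbWT, and 0.14 ± 0.28 in PbKO. In VeKO CL, 2 libraries (G_2 at 33.0 and G_3 at 54.8 CPM) stood above the other 4, at 6.64 to 12.3 CPM. Without the libraries that held *Xist* and Y-linked counts, *Ltbp1* was called lower in VeKO UUO (-1.55, adjusted p in edgeR 0.0303), as it was with all 12 groups in 1 fit (-0.96, 0.0338). It was 0.38 in plain names, -0.33 without the numbers that stood for both genotypes, and -0.33 without G_3 (adjusted p in edgeR 0.947, 0.885, and 0.787), so that its direction turned with the form of name.

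**Figure D2:**
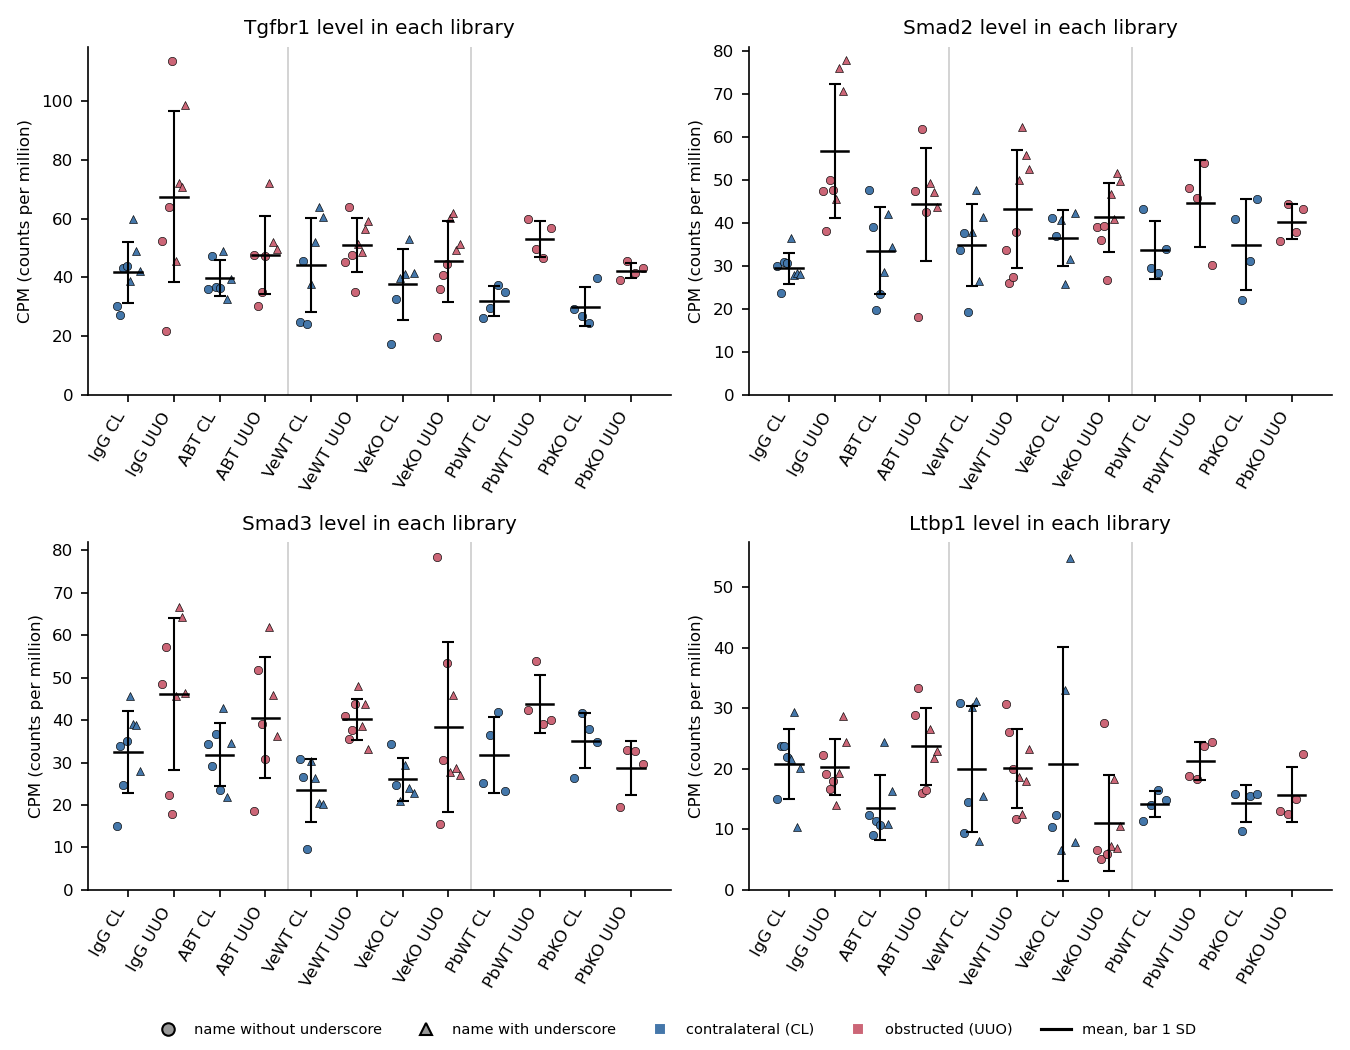
Levels (CPM, linear axes from 0) of *Tgfbr1*, *Smad2*, *Smad3*, and *Ltbp1* in each library by group, with the mean and 1 SD; symbols and colours as in the plot of *Tgfbr2*. In IgG the *Smad2* libraries are apart (38.2 to 78.0 CPM in UUO, 23.7 to 36.5 CPM in CL), while *Ltbp1* is low in most ABT CL libraries (median 11.3 CPM).

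Against the background, 4 of 7 tested genes were called higher in IgG UUO (*Tgfbr1*, *Tgfbr2*, *Smad2*, *Smad3*), where 16.3% of all 9579 tested genes were called higher and 18.2% lower. In ABT the count was 2 of 7 (*Tgfbr2* and *Ltbp1*) against 12.6% higher and 12.5% lower of all genes. In VeWT it was 2 of 9 (*Tgfbr2* and *Smad3*) against 10% higher and 8.38% lower of 11916 genes, and in VeKO 1 of 9 (*Tgfbr2*) against 4.47% and 3.47%. In PbWT it was 2 of 8 (*Tgfbr1* and *Tgfbr2*) against 17.9% higher and 19.4% lower of 10923 genes, and in PbKO 0 of 8 against 3.94% and 2.42%. In PbKO 3 of the 8 had an unadjusted p under 0.05 in edgeR, as did 19.9% of all genes, and neither DESeq2 nor edgeR's exact test called any. No tested member was called lower in UUO. The median log2 fold change of the tested members was 0.59 in IgG, 0.39 in ABT, 0.31 in VeWT, 0.35 in VeKO, 0.52 in PbWT, and 0.08 in PbKO, with medians over all genes between -0.01 and 0.04. Without TMM normalization the all-gene median in PbWT was 0.41, and 4453 genes were called higher and 1153 lower in place of 1956 and 2119.

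**Figure D3:**
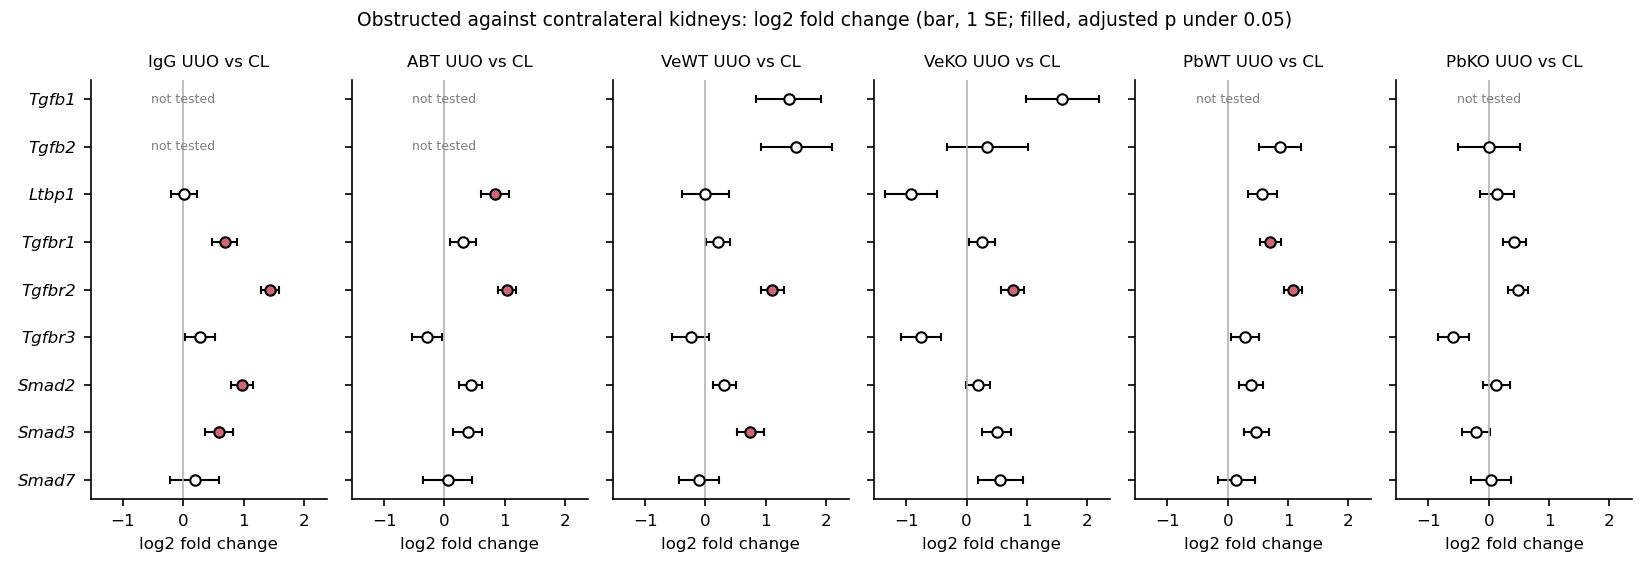
Log2 fold change of UUO against CL kidneys for 9 of the 10 genes in the 6 groups of mice, with 1 SE; filled points have an adjusted p under 0.05 and *Tgfb3* passed the count filter in no arm. *Tgfbr2* is filled in 5 panels, at 0.76 to 1.44, and lies at 0.49 in PbKO.

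The ligands were measured too thinly for most tests. *Tgfb1* had 302 counts over all 75 libraries, *Tgfb2* 469, and *Tgfb3* 280. *Tgfb1* was tested in the Veptp arm, where VeWT CL was at 0, 2.27, and 5.48 CPM and VeWT UUO at 0, 6.86, and 13.6 CPM (25 and 85 counts in all). The log2 fold change was 1.38 ± 0.54 in VeWT (adjusted p in edgeR 0.0677) and 1.59 ± 0.61 in VeKO (adjusted p in edgeR 0.105), and neither passed. With the form of name as a covariate both passed (1.56 and 1.79, adjusted p in edgeR 0.0018 and 0.00301). By form, *Tgfb1* in VeWT UUO was at 3.31 ± 2.66 CPM in plain names and 10.6 ± 2.52 CPM in split names (n = 4 each).

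*Tgfb2* in VeWT was at 0.577, 4.07, and 10.3 CPM in CL and 2.84, 11.7, and 17.8 CPM in UUO (log2 1.5 ± 0.59, adjusted p in edgeR 0.0699). It passed with the form of name as a covariate (1.46, adjusted p in edgeR 0.00933). In PbWT it was at 3.42, 8.44, 13.5, and 6.38 CPM in CL and at 8.46, 13.5, 16.2, and 18.6 CPM in UUO (0.86 ± 0.35, adjusted p in edgeR 0.0568). In VeKO and PbKO it was 0.35 ± 0.67 and 0.01 ± 0.52. *Tgfb2* is overlapped on the opposite strand by *Gm29491*, with 5 counts in all.

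*Tgfb3* was counted 20 times in the 8 IgG UUO libraries and 1 time in the 8 IgG CL libraries. The ratio of these counts, each divided by the summed TMM-scaled library totals of its group, was 23.1, with a 95% exact counting interval of 3.69 to 956. This interval leaves out the spread between mice. By form of name, IgG UUO was at 1.36 ± 2.73 CPM in plain and 7.55 ± 3.13 CPM in split names (n = 4 each). In ABT it had 12 counts in CL and 33 in UUO. With no filter on low counts, *Tgfb3* was called higher in UUO in both IgG and ABT (adjusted p in edgeR 0.00022 and 0.0136), and at 1 count in the IgG CL group its fitted fold change is not a bound. Those fits did not call it in VeWT, VeKO, or PbWT (adjusted p in edgeR 0.0727, 0.826, and 0.145), nor in PbKO (log2 -2.56, 0.144). In VeWT there were 25 counts in CL and 89 in UUO, in VeKO 13 and 36, in PbWT 6 and 33, and in PbKO 10 and 2. The 4 PbKO UUO libraries (0 to 1.14 CPM) lay below the 4 PbKO CL libraries (1.32 to 12.2 CPM). *Tgfb3* is overlapped on the opposite strand by *Ttll5* (699 counts in all), and no strand setting is given in the sources used here, so reads of the overlap cannot be told apart.

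**Figure D4:**
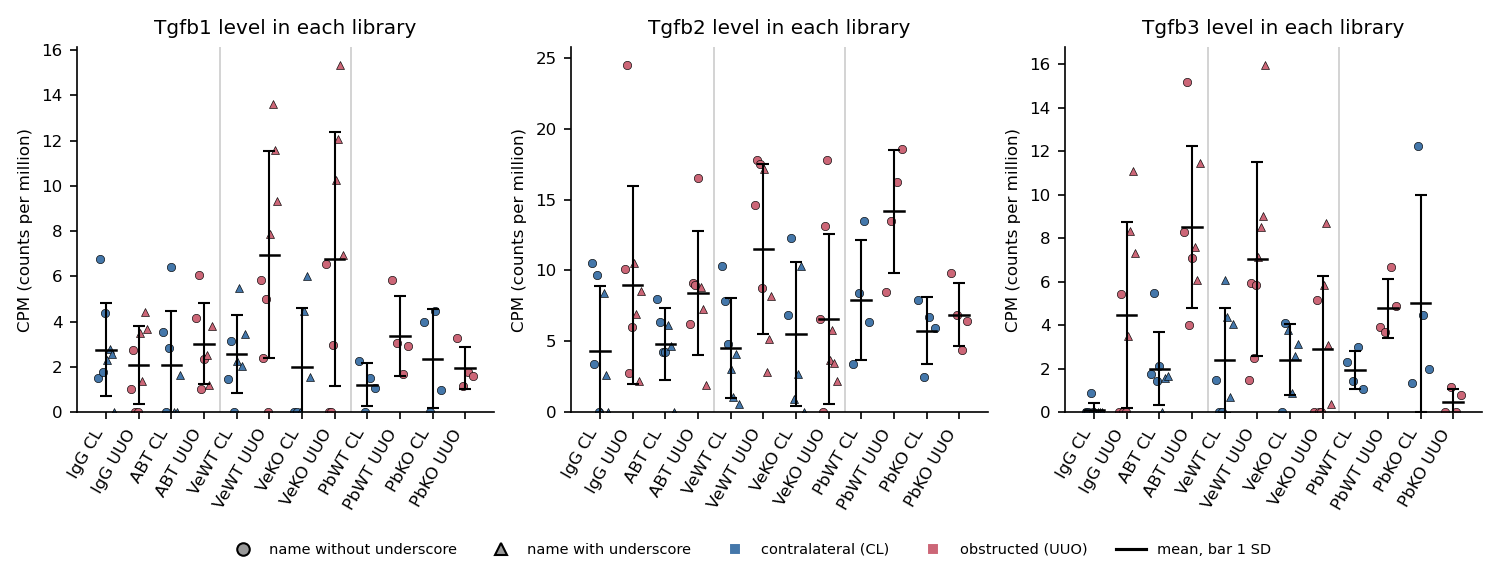
Levels (CPM, linear axes from 0) of *Tgfb1*, *Tgfb2*, and *Tgfb3* in each library by group, with the mean and 1 SD; symbols and colours as in the plot of *Tgfbr2*. *Tgfb3* is at 0 in 7 of 8 IgG CL libraries and between 0 and 11.1 CPM in IgG UUO.

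ABTAA was given to ask whether TIE2 activation alters the response to obstruction. In UUO kidneys 0 of 7 members were called between ABT and IgG, and 0% of all genes, with 2 of 7 at an unadjusted p under 0.05 and no call in DESeq2 or edgeR's exact test. Those were *Tgfbr1* (67.4 ± 29.1 CPM in IgG and 47.7 ± 13.4 CPM in ABT, log2 -0.48 ± 0.21) and *Tgfbr3* (27.3 ± 10.7 and 18.7 ± 4.58 CPM, -0.56 ± 0.26). *Tgfbr2* was at 116 ± 13.6 and 110 ± 13.1 CPM (-0.10 ± 0.14). In CL kidneys 0 of 7 were called, again with 0% of all genes, and *Ltbp1* had the lowest unadjusted p (-0.68 ± 0.23, 0.00471). For the difference between the responses (0% of all genes called) the estimates were -0.41 ± 0.21 for *Tgfbr2* and 0.82 ± 0.31 for *Ltbp1*, neither of which passed (adjusted p in edgeR 0.999 for both). Of all genes 340, 303, and 315 had an unadjusted p under 0.05 in edgeR in these 3 comparisons, and DESeq2 called 0 in each. The call of *Ltbp1* in ABT and its absence in IgG is therefore not shown to be a difference between them.

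Endothelial loss of *Veptp* was the genetic counterpart. In UUO 0 of 9 members were called between VeKO and VeWT, with 0% of all genes, and 1 of 9 had an unadjusted p under 0.05. This was *Tgfbr2*, at 94.0 ± 22.5 CPM in VeKO and 123 ± 16.4 CPM in VeWT (log2 -0.38 ± 0.17), with 3 of 8 VeKO libraries below all VeWT libraries. *Tgfb2* was at 6.57 ± 5.97 and 11.5 ± 6.00 CPM (-0.92 ± 0.55) and *Ltbp1* at 11.1 ± 7.94 and 20.1 ± 6.50 CPM (-0.77 ± 0.41). In CL kidneys 0 of 9 were called and 0 of 9 had an unadjusted p under 0.05 in edgeR (0% of all genes called), and the differences of response gave 0 of 9 at both levels (0% of all genes called). DESeq2 called no member in any of these 3 comparisons. Of all genes 426, 229, and 324 had an unadjusted p under 0.05 in edgeR, and DESeq2 called 1, 0, and 0.

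The Pdgfb arm gave the only calls of members between groups of mice. In UUO kidneys *Tgfbr2* was lower in the libraries labelled PbKO (66.0 to 81.6 CPM) than in PbWT (112 to 120 CPM), with all 4 below all 4 (log2 -0.67 ± 0.15, adjusted p in edgeR 0.0022). This call was lost with all 12 groups in 1 fit (-0.66, adjusted p in edgeR 0.0561) and in thinned libraries (-0.77, adjusted p in edgeR 0.119). *Tgfb2* was at 9.79, 6.83, 4.41, and 6.41 CPM in PbKO UUO and at 8.46, 13.5, 16.2, and 18.6 CPM in PbWT UUO, which overlapped by 1 library of each (-1.15 ± 0.36, adjusted p in edgeR 0.0267). The *Tgfb2* call rested on 22 and 93 counts, and was lost with DESeq2 (adjusted p 0.0663) and with all 12 groups in 1 fit (adjusted p in edgeR 0.349). It was also lost when any of 5 libraries was left out, C12 and D12 of PbWT and E11, A12, and F12 of PbKO, with values between -0.96 and -1.19.

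These were 2 of 8 tested members, against 6.58% of all 10923 genes called lower and 12% called higher. Both directions of call depend on the scale, since without TMM normalization the all-gene median was -0.29 in place of -0.02 and 657 genes were called higher and 2500 lower, in place of 1315 and 719. On that scale *Tgfbr2* was at -0.94 and *Tgfb2* at -1.41, both below that median, and *Tgfbr1*, *Tgfbr3*, and *Smad3* were called lower as well.

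*Smad3* was at 19.6, 33.0, 32.6, and 29.7 CPM in PbKO UUO and 42.3, 53.9, 39.1, and 40.1 CPM in PbWT UUO, without overlap. Its change of -0.53 ± 0.20 missed the threshold (adjusted p in edgeR 0.073) and passed in edgeR's exact test (adjusted p 0.0437). *Tgfbr1* also did not overlap (39.2 to 45.5 against 46.6 to 59.8 CPM, -0.29 ± 0.17, adjusted p in edgeR 0.25). In this comparison 4 of 8 members had an unadjusted p under 0.05 in edgeR, as did 31.0% of all genes. The share of all genes whose groups do not overlap is not given, so the lack of overlap is a description only. *Tgfbr3* was at -0.57 ± 0.24 (adjusted p in edgeR 0.0971), and was called lower without the PbWT library D11 (-0.72, adjusted p in edgeR 0.0412). *Ltbp1* was at -0.35 ± 0.23, *Smad2* at -0.13 ± 0.19, and *Smad7* at 0.06 ± 0.29. *Smad7* had no count in the shallow PbKO UUO library F10. *Tgfb3* had 2 counts in the 4 PbKO UUO libraries and 33 in the 4 PbWT UUO libraries. The ratio was 8.92 after division by the summed library totals (95% exact counting interval 2.28 to 76.7), and this interval leaves out the spread between mice. With no filter on low counts *Tgfb3* was called lower (adjusted p in edgeR 0.0055).

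In CL kidneys 0 of 8 members were called between PbKO and PbWT, 0 had an unadjusted p under 0.05 in edgeR, DESeq2 called none, and 0% of all genes were called (378 at an unadjusted p under 0.05 in edgeR and 0 in DESeq2). For the difference between the responses, 0 of 8 were called against 6.66% of all genes higher and 1.9% lower. Without TMM normalization the split turned, from 728 genes higher and 207 lower to 312 and 668, at an all-gene median of -0.29, and *Tgfbr2* (-0.88), *Tgfbr3* (-1.17), and *Smad3* (-0.98) were called lower. All 8 estimates were negative, with *Tgfbr3* at -0.87 ± 0.35, *Smad3* at -0.69 ± 0.31, and *Tgfbr2* at -0.59 ± 0.23 (unadjusted p in edgeR 0.0198, 0.034, and 0.0154), and DESeq2 called none. Of all genes, 2368 (21.7%) had an unadjusted p under 0.05 in edgeR for this difference, beside 3 of the 8 members. Leaving out the PbWT CL library E4, the highest for *Tgfbr2*, gave -0.78 with an adjusted p in edgeR of 0.0227. Every PbKO UUO library held counts of both *Xist* and Y-linked genes, so no fit without such libraries could be made for PbKO UUO.

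**Figure D5:**
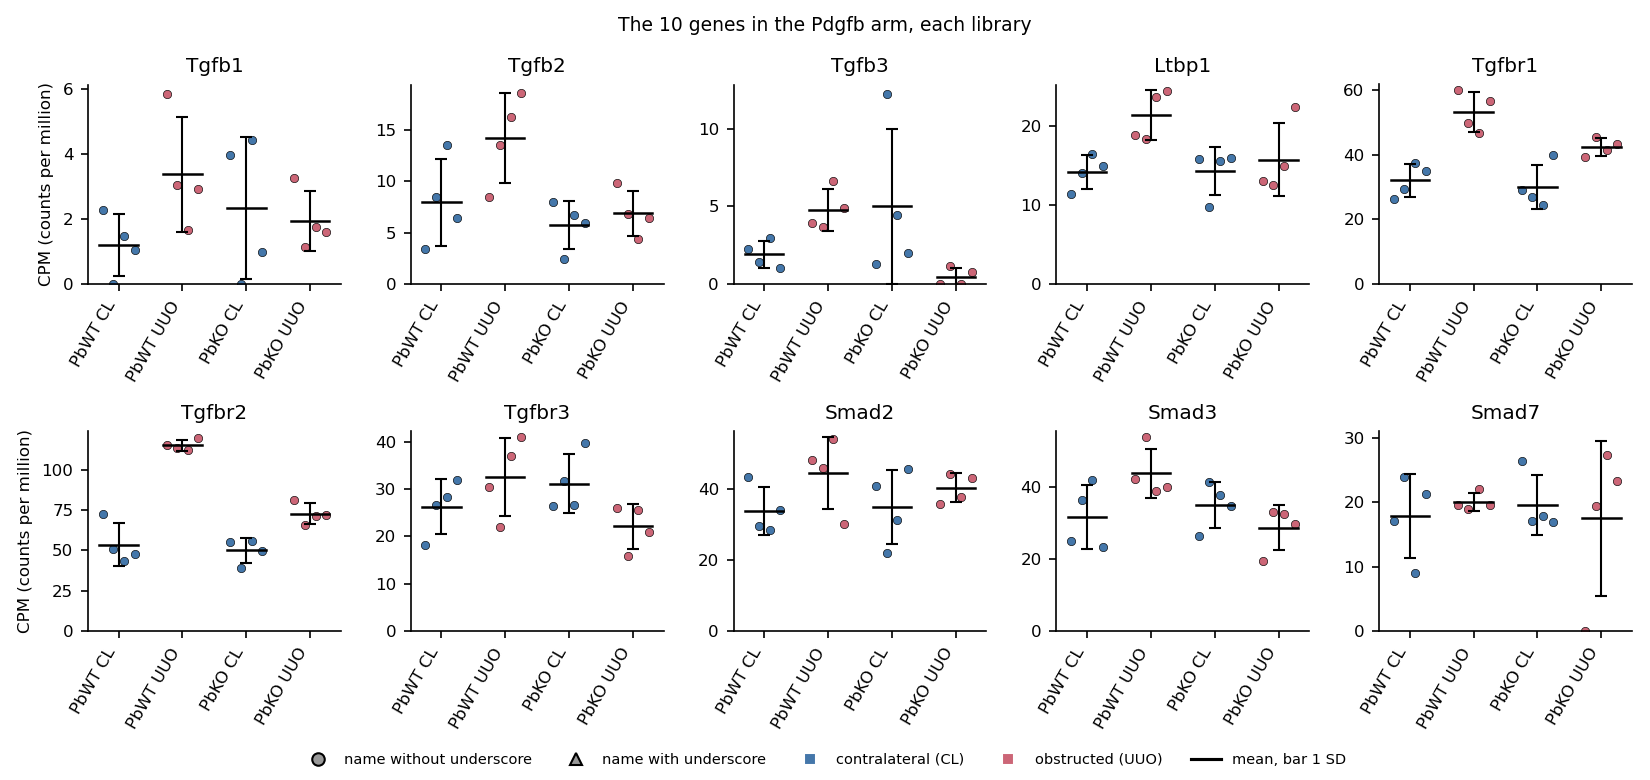
Levels (CPM, linear axes from 0 that differ between panels) of the 10 genes in the 16 libraries of the Pdgfb arm, with the mean and 1 SD. For *Tgfbr2*, *Smad3*, *Tgfbr1*, and *Tgfb3* every PbKO UUO library is below every PbWT UUO library, as at 66.0 to 81.6 against 112 to 120 CPM for *Tgfbr2*. The share of all genes that separate in this way is not given.

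In whole kidneys, fewer cells of a type and less RNA per cell cannot be told apart, and summed markers of several cell types differed along with these genes. The summed level of 6 fibroblast and pericyte markers had a median of 144 CPM in IgG CL and 1081 CPM in IgG UUO, and of 146, 879, 137, and 455 CPM in PbWT CL, PbWT UUO, PbKO CL, and PbKO UUO. In the last comparison the ranges were 758 to 1003 CPM in PbWT UUO and 258 to 649 CPM in PbKO UUO. In VeKO UUO the sum was 211 to 713 CPM and in VeWT UUO 736 to 1237 CPM. Of 6 macrophage and leukocyte markers the sum was 451 to 647 CPM in PbWT UUO and 271 to 363 CPM in PbKO UUO. Of 6 proximal tubule markers, which are abundant in kidney, it was 1984 to 2811 CPM in PbWT UUO and 3490 to 6260 CPM in PbKO UUO, and 6876 to 7522 CPM in PbWT CL. Of 6 loop and distal nephron markers it was 2214 to 2611 CPM in PbWT UUO and 3756 to 5248 CPM in PbKO UUO. The sums of 6 endothelial markers (222 to 286 and 144 to 234 CPM), 5 podocyte markers (230 to 285 and 173 to 245 CPM), and 5 adipocyte markers (93.0 to 96.8 and 25.0 to 355 CPM) overlapped in the same UUO groups, although all 6 endothelial markers had negative log2 fold changes in PbKO against PbWT UUO (median -0.44) and *Cdh5* and *Pecam1* were called lower. Every marker had a count in every group except *Plin1* in ABT CL. The part of these cell types in the changes of *Tgfbr2*, *Tgfb2*, and the other members was not tested.

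The rest of the pathway was described with lists of known genes. Their counts stand beside 16.3% of all genes in IgG, 12.6% in ABT, 10% in VeWT, 4.47% in VeKO, 17.9% in PbWT, and 3.94% in PbKO called higher in UUO. Called lower in UUO were 18.2% of all genes in IgG, 12.5% in ABT, 8.38% in VeWT, 3.47% in VeKO, 19.4% in PbWT, and 2.42% in PbKO. Of 11 genes for storage and activation of ligand, 6 of 7 tested were called higher in IgG UUO, 5 of 7 in ABT, 8 of 11 in VeWT, 2 of 11 in VeKO, 7 of 10 in PbWT, and 4 of 10 in PbKO, and none lower. Their median log2 fold change was 1.12 in IgG and 1.03 in PbWT, and -0.57 in PbKO against PbWT UUO, where the all-gene median was -0.02. It was -0.50 in VeKO against VeWT UUO and -0.21 in ABT against IgG UUO, with none called. *Fbn1*, the microfibril protein fibrillin-1, rose by 2.54 ± 0.22 in IgG and 2.49 ± 0.27 in PbWT on the log2 scale. *Emilin1*, a matrix protein that restrains TGF-β processing, rose by 1.89 ± 0.25 and 1.74 ± 0.23, *Thbs1*, the activator thrombospondin-1, by 1.24 ± 0.22 and 1.48 ± 0.23, and *Itgav*, the integrin subunit αv, by 1.12 ± 0.18 and 0.99 ± 0.14. In PbKO against PbWT UUO, where 6.58% of all genes were called lower, 5 of 10 were lower, *Fbn1* (-1.21 ± 0.24), *Thbs1* (-1.11 ± 0.22), *Emilin1*, *Itgav*, and *Ltbp3*.

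Of 16 known target genes, 11 of 13 tested were higher in IgG UUO, 10 of 13 in ABT, 13 of 15 in VeWT, 7 of 15 in VeKO, 12 of 14 in PbWT, and 8 of 14 in PbKO, and none were lower. Their median was 2.01 in IgG, 2.09 in PbWT, 1.17 in PbKO, and -1.02 in PbKO against PbWT UUO. In VeKO against VeWT UUO it was -0.77, with 12 of 15 negative, and in ABT against IgG UUO -0.34, with 13 of 13 negative, and no gene of the list was called in either. *Timp1*, an inhibitor of matrix proteases, rose by 5.39 ± 0.43 in IgG, 5.45 ± 0.45 in ABT, 5.41 ± 0.86 in VeWT, and 3.85 ± 0.30 in PbWT. The collagen genes *Col1a1* (3.66 ± 0.26 in IgG), *Col3a1* (3.68 ± 0.19), and *Col1a2* (2.74 ± 0.19) rose as well. In PbKO against PbWT UUO, where 6.58% of all genes were called lower, 11 of 14 were lower, among them *Timp1* (-1.32 ± 0.22) and *Col1a1* (-1.10 ± 0.28). These genes have other regulators, and *Col1a1* and *Col3a1* also stand in the fibroblast list.

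Of 12 activin, GDF, and BMP ligands, *Bmp6* was higher in IgG, ABT, VeWT, VeKO, and PbWT UUO (1.08 ± 0.19 in IgG). *Bmp7*, a tubular ligand known to oppose TGF-β, was lower in IgG (-1.16 ± 0.22), ABT (-1.0 ± 0.22), VeWT (-0.82 ± 0.25), and PbWT (-1.44 ± 0.24). The counts were 1 higher and 1 lower of 3 tested in IgG and in ABT, 4 and 1 of 6 in VeWT, 3 and 0 of 6 in VeKO, 3 and 1 of 6 in PbWT, and 1 and 0 of 6 in PbKO. The 1 lower of 6 in PbWT is near the 19.4% of all genes called lower there. In PbKO against PbWT UUO *Bmp7* was higher (0.74 ± 0.25) and *Bmp6* lower (-0.80 ± 0.20), 1 of 6 each way. Of all genes 12% were called higher and 6.58% lower there, so these counts are near the background.

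Of 12 activin and BMP receptors and co-receptors, *Eng* was higher in IgG and PbWT and *Acvr1b* lower in IgG (1 and 1 of 6 tested, near the 16.3% and 18.2% of all genes called higher and lower), 4 of 9 were higher in PbWT, and none was called in ABT (of 6), VeWT, VeKO (of 11 each), or PbKO (of 9). In PbKO against PbWT UUO *Bmpr2* (-0.47 ± 0.16) and *Eng* (-0.66 ± 0.22) were lower, 2 of 9 against 6.58% of all genes. Of 5 further SMADs 3 were tested, with 2 higher in IgG, 1 in ABT, 1 in VeWT, 0 in VeKO, 2 in PbWT, and 0 in PbKO, where the all-gene shares called higher were 16.3%, 12.6%, 10%, 4.47%, 17.9%, and 3.94%. *Smad1*, which carries BMP signals, was higher in IgG (1.36 ± 0.28), ABT (0.99 ± 0.28), VeWT (1.13 ± 0.39), and PbWT (1.23 ± 0.22). *Smad4*, the common partner, was higher in PbWT (0.69 ± 0.17) and lower in PbKO than in PbWT UUO (-0.49 ± 0.17).

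Of 12 SMAD partners and brakes 10 were tested. Called higher were 4 in IgG, 4 in ABT, 2 in VeWT, 0 in VeKO, 4 in PbWT, and 1 in PbKO. Of all genes, 10% were called higher in VeWT and 3.94% in PbKO, so the 2 of 10 and 1 of 10 there are near the background. *Tgif1*, a repressor that binds SMADs, rose by 1.5 ± 0.32 in IgG and 1.82 ± 0.29 in PbWT. In PbKO against PbWT UUO 2 of 10 partners and brakes were lower (*Pmepa1* and *Zeb1*), against 6.58% of all genes, and 8 of 10 estimates were negative. Of 10 extracellular antagonists, *Dcn*, *Bgn*, and *Fstl1* were higher and *Sostdc1* lower in IgG, ABT, VeWT, and PbWT. The numbers tested there were 4, 4, 6, and 5. *Bgn* (biglycan) rose by 1.81 ± 0.24 in IgG and *Sostdc1*, an antagonist of BMP and WNT made in the tubule, fell by 1.5 ± 0.27. In VeKO *Sostdc1* alone was called of 6, and in PbKO *Fstl1* and *Bgn* of 5. In PbKO against PbWT UUO 3 of 5 were lower (*Dcn*, *Fstl1*, and *Bgn*), against 6.58% of all genes called lower. *Dcn* also stands in the fibroblast list. The medians in IgG were 0.25 for the ligands, 0.33 for the receptors, 0.56 for the SMADs, 0.48 for the partners, and 1.61 for the antagonists.

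The members did not share 1 pattern over the 12 groups. Pearson's r between group means of *Tgfbr2* and *Smad2* was 0.886, with *Tgfbr1* 0.822, and with *Smad3* 0.738. It was 0.351 with *Ltbp1*, 0.152 with *Smad7*, and -0.10 with *Tgfbr3*. The genes most like the others were *Psmd11*, *Wdr90*, and *Bzw1* for *Tgfbr1* (r = 0.94 to 0.958) and *Tuft1*, *Adamts9*, and *Crem* for *Smad2* (0.946 to 0.965). They were *Hs2st1*, *Dip2b*, and *Ssh2* for *Smad3* (0.952 to 0.966). Lower values were reached by *Hnrnpul2*, *Kat6a*, and *Krba1* for *Tgfbr3* (0.846 to 0.878), *Pfkfb3*, *Dicer1*, and *Rere* for *Smad7* (0.848 to 0.892), and *Ascl4*, *Donson*, and *Gm36423* for *Ltbp1* (0.85 to 0.872). These are descriptions over 12 group means that share libraries, with no test.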

How the data were processed

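Kidney RNA of 75 libraries was prepared by Smart-seq3. Per the study's methods and the submitters' processing notes, the authors merged the reads of replicate wells, mapped them to mm10 with STAR 2.7.3a, filtered duplicated molecules in UMI-tools 1.1.4, and counted genes with featureCounts (Subread 1.4.6-p5). The authors deposited raw counts without normalization. No source used here gives the annotation or the strand setting.

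Groups came from the labels. Each arm was fitted over its 4 groups in edgeR 4.0.16 (R 4.3.3) with TMM normalization, filterByExpr by group, glmQLFit, and glmQLFTest, with Benjamini-Hochberg adjustment over all genes of the arm and a threshold of 0.05. The study's exact test and DESeq2 1.42.0 were alternatives, and the procedure was tested on simulated data. The SE is the log2 fold change divided by the square root of F. Levels are CPM with TMM factors over all 75 libraries. Intervals and floors cover counting error only. The precision of a value is set by its counts: 1 CPM was 0.153 counts in the shallowest and 2.73 in the deepest library. The library, 1 kidney, was the unit. CL and UUO kidneys of the same mice were used, so the libraries come from fewer mice than kidneys, and the fits treated them as independent except with the replicate block. No 2 libraries of 1 group agreed within counting noise (214 pairs). In the Veptp arm, pairs of unlike name form differed more than pairs of like form. Chi-square per degree of freedom was 24.8 to 43.4 against 2.59 to 5.70 in VeWT CL, and 23.9 to 61.1 against 2.68 to 13.9 in VeKO UUO. In IgG CL these ranges overlapped (5.87 to 15.6 and 1.80 to 9.87). The main fits did not include the form of name.

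The members, lists, and tests were chosen with earlier results of these data known. Named were all 10 members, list genes called in 1 direction in IgG, ABT, VeWT, and PbWT UUO (at most 4 per list by mean size), list genes called otherwise, chosen after their values were seen, the deleted genes, and the 3 genes most like each member tested in all arms. Numbers in the names paired 3 ABT CL with 3 ABT UUO libraries, as their deviations from the group means correlated at 0.459 (number 9), 0.244 (11), and 0.201 (12) over 7839 genes. Promoter entries off the excluded chromosome were found for 6 members.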

Additional observations from a re-analysis of the deposited data

Results flagged for a closer look

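In 9 of 120 combinations of gene and group, the highest or lowest library stood apart from the rest of its group by Dixon's criterion, and chance alone sets apart about 1 in 20 groups. *Tgfb2* in IgG UUO was at 24.5 CPM in library D6 (9 counts), with the next at 10.5 CPM. *Tgfb3* was at 0.882 CPM in the IgG CL library B6, from 1 count against 0 in the other 7, and at 5.45 CPM in the ABT CL library F5 (6 counts), with the next at 2.14 CPM. *Tgfbr3* was low at 6.24 CPM in the ABT CL library N_11 (4 counts), with the next at 20.4 CPM, and at 9.63 CPM in the VeWT CL library F9 (2 counts), with the next at 34.0 CPM. *Smad7* was high at 28.2 CPM in the VeWT CL library A8 and at 26.4 CPM in the PbKO CL library B10, and low at 11.1 CPM in the VeKO UUO library H_2. *Ltbp1* was low at 9.78 CPM in the PbKO CL library D10 (4 counts), with the next at 15.6 CPM. Leaving out any 1 of these libraries changed no call of a member, except that the *Smad3* call in IgG was lost without D6 (0.55, adjusted p in edgeR 0.0753), B6 (0.51, 0.104), and F5 (0.58, 0.0531).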

How the results depend on the processing

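Of 120 log2 fold changes of members most were not called, and 0 of the called ones changed sign under any alternative. Some that were not called did change sign. *Tgfbr1* in VeWT and *Smad2* in ABT turned negative in thinned libraries (-0.75 and -0.44), and *Ltbp1* in VeKO turned positive in plain names (0.38). In libraries with plain names the members called in UUO against CL were 1 in IgG, 1 in VeWT, and 0 in VeKO. With split names and no block they were 1 in ABT, 6 in VeWT, and 2 in VeKO. With the number as a replicate block they were 1 in ABT, 1 in VeWT, and 2 in VeKO. In the Veptp arm the numbers were not taken to pair the samples, as 1 of 8 same-numbered pairs correlated at 0.0982, below the limit set for pairing, while the other 7 correlated at 0.161 to 0.547. Whether they mark shared mice was not tested. With the form of name as a covariate 4 were called in VeWT and 2 in VeKO. Without the numbers that stood for both genotypes 1 was called in VeWT and 0 in VeKO. Without libraries with *Xist* and Y-linked counts, an alternative chosen after seeing the data, 2 were called in VeKO, and PbKO UUO could not be fitted. Fitted without the VeWT groups, VeKO gave 0. In libraries thinned to the shallowest of the arm, 2 were called in IgG, 0 in ABT, 0 in VeWT, 0 in VeKO, 1 in PbWT, and 0 in PbKO against PbWT UUO. With all 12 groups in 1 fit, 1 was called in ABT, 4 in VeWT, 4 in VeKO (*Tgfbr3* and *Ltbp1* lower), and 0 in PbKO against PbWT UUO. Without TMM normalization 7 were called in PbWT, 5 in PbKO against PbWT UUO, and 3 for the difference of these responses. With DESeq2 or a mean count of at least 20, 1 was called in PbKO against PbWT UUO, and with no filter 1 for the difference of responses. The share of all genes called under each setting is not given beside these counts. Whether the changes are particular to the members, and their cause, were not tested.

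Leaving out 1 library at a time gave 3 to 4 calls in IgG, 2 to 3 in ABT, 1 to 3 in VeWT (1 without G_8), 1 in VeKO, 2 to 4 in PbWT (4 without A5), 1 to 3 in PbKO against PbWT UUO (1 without C12, D12, E11, A12, or F12), and 0 to 1 for the difference of responses (1 without E4). Without TMM normalization the all-gene median moved to 0.23 in IgG (2492 genes higher and 1087 lower), 0.14 in ABT (1592 and 796), 0.14 in VeWT (1383 and 543), and 0.12 in VeKO (613 and 242). Levels in UUO without TMM factors were 61.4 CPM for *Tgfbr1*, 134 for *Tgfbr2*, 23.2 for *Smad7*, and 24.7 for *Ltbp1* in PbWT, and 139 for *Tgfbr2* and 45.5 for *Smad3* in VeWT. Depth limits the ligands most, at medians of 1 to 5 counts per library.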
